A study of Mus musculus with 2 samples.

Results

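The clusters described here are the positions at which an immunoprecipitation without its epitope gave a larger share of its library's reads, after the authors' scaling for depth, than the same procedure with it. They come from an iCLIP experiment (individual-nucleotide resolution crosslinking and immunoprecipitation) on FAM120A, an RNA-binding protein associated with Argonaute 2, in mouse embryonic stem cells. Of 12804 read clusters deposited for the 2 libraries, 1134 were listed as enriched in the untagged library, and 1019 of these carried only names that begin with region B. The other 115 untagged-list clusters were 109 named only region C2, 5 that joined region B with another class, and 1 named by a junction. The letters B and C2 are the authors' own and are not explained in the sources used here.

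The untagged library came from TT-Fam120a cells, which carry a doxycycline-inducible Fam120a without epitopes, delivered with the pSLIK lentivirus. The tagged library came from TT-FHFam120a cells, in which the induced protein bears FLAG and HA. Both lines received doxycycline at 2.5 µg/mL, and both lysates went through serial FLAG and HA immunoprecipitation after ultraviolet crosslinking and partial RNase I digestion. The state of the endogenous Fam120a gene and the number of clones behind each line are not given in the labels. There was 1 library per group, so no difference between libraries has a replicate check and no test between groups was made. All intervals are 95% intervals that cover counting error only and take no account of how clusters were listed or picked.

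In iCLIP, ultraviolet light joins a protein to the RNA it touches, and the peptide left on the RNA often stops reverse transcriptase, so that cDNA ends mark contact sites. A protein that contacts a transcript at many places leaves reads with varied ends over neighbouring positions, whereas copies of 1 cDNA molecule made by PCR all share the same ends. Separate cDNAs that stop at the same contact site also end at 1 position, so stacking alone does not separate these origins. A library from cells without the epitope measures RNA that binds beads, antibodies or membrane, or that enters by other routes. Reads that pile up at a single position were called stacked here when over 75% of a cluster's reads lay at its highest position, and spread when at most 50% did.

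Every untagged region B cluster was 26 nt long, and in 1009 of the 1019 the highest position was the only one, at an offset of 12 from the start. Each is thus a fixed window around 1 peak of reads. The clusters held a median of 21 untagged reads (interval 19 to 23), with quartiles of 10 and 58.5 and a range of 5 to 5800. By size, 247 clusters had 5 to 9 reads, 237 had 10 to 19, 248 had 20 to 49, 137 had 50 to 99 and 150 had 100 or more. Clusters of 5 to 9 reads thus made up 24.2% of the untagged region B clusters, a smaller part than among the isolated region B clusters of the tagged list (2859 clusters with no tagged-list neighbour within 1000 nt on their strand). Of those, 1612 (56.4%) had 5 to 9 reads, and their median was 8 (7 to 8).

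These positions were not empty in the tagged library. Tagged reads were recovered from the listed values after the authors' scaling, which divides them by about 1.5 and is read here as bringing both libraries to the same depth. The tagged library had reads at 881 of 1019 clusters (86.5%, interval 84.2 to 88.4), with a median of 7 scaled reads (6 to 8). It had 0 reads at 138 clusters, or 13.5% (11.6 to 15.8), and at only 2 of the 535 clusters with 20 or more untagged reads (0.374%, 0.103 to 1.35). Across the 1019 clusters the reads of both libraries rose together, with a Spearman correlation of 0.97, given as a description since both libraries share position and listing rule.

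**Figure D1:**
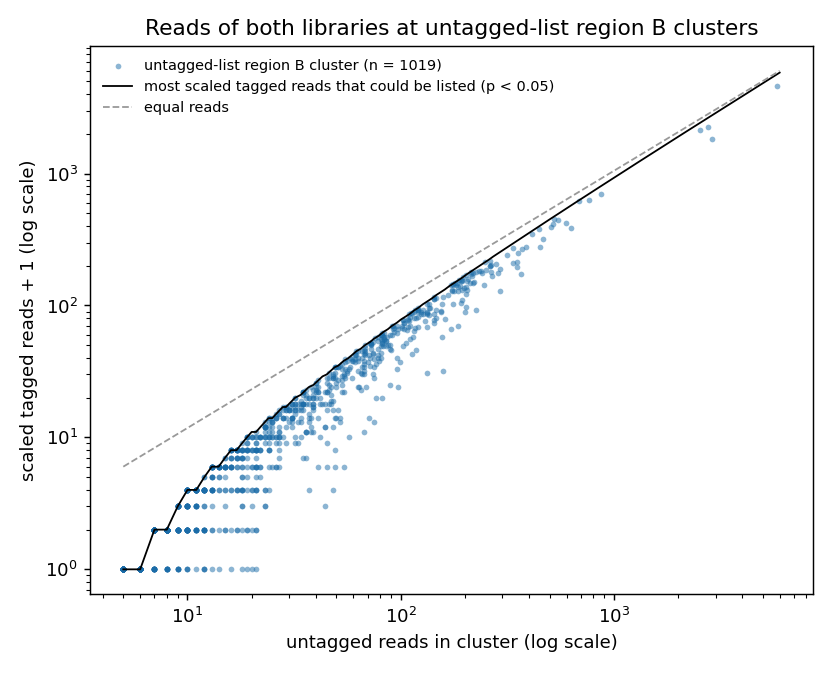
Each point is 1 of the 1019 untagged region B clusters, with its untagged reads on the x axis and scaled tagged reads plus 1 on the y axis, both on log scales. The solid line marks the most tagged reads a cluster could have and still be listed, and the dashed line equal reads. The points lie on or below the solid line, up to the cluster with 5800 untagged and 4638 scaled tagged reads. Their log2 ratios exceed the lowest that could be listed by a median of 0.23, an upper quartile of 0.58 and at most 3.46.

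The median listed log2 ratio of untagged to scaled tagged reads, after 1 was added to each, was 1.46 (1.39 to 1.51). The listed log2 ratio was 1 or higher at 720 of the 1019 clusters (70.7%), against 65.7% of the whole untagged list, and 3 or higher at 55 clusters (5.4%), against 4.94%. The list was selected on this contrast, so these values describe the selection and nothing is read from them. A cluster of 5 reads could be listed only with 0 tagged reads, which fixes a log2 ratio of 2.58, while clusters of 20 and 100 reads could be listed from ratios of 0.93 and 0.37. The clusters lay a median of 0.23 (0.19 to 0.26) above the lowest ratio that could be listed at their read count. For 320 clusters (31.4%) a single further scaled tagged read would have ended the listing.

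The median log2 ratio accordingly fell with read count, from 2.58 at 5 to 9 reads to 1.58 at 10 to 19, 1.2 at 20 to 49, 0.75 at 50 to 99 and 0.5 (0.45 to 0.56) at 100 or more. At the edge of the list, the cluster at chr8:11378660-11378685 on the minus strand had 24 untagged reads against 13 scaled tagged reads. Its listed p was 0.0494 in the authors' one-sided binomial test. The listed p equals the plain binomial value, so it has no adjustment for the number of positions tested, which is not known. Just outside the edge no values are known, since the lists hold only clusters that passed.

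In most clusters of 100 or more reads the direction of the excess rested on the depth scaling. Before scaling, the tagged library had more reads than the untagged library at 119 of the 1019 clusters (11.7%). These were 0 of the 732 clusters under 50 reads, 27 of 137 at 50 to 99 reads (19.7%), and 92 of 150 at 100 or more (61.3%, 53.3 to 68.8). After scaling every listed cluster has an untagged excess, since the listing required one.

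Stacking set these clusters apart from the C2 class in the same library. Among the 535 untagged region B clusters of at least 20 reads, 395 were stacked (73.8%, 69.9 to 77.4) and 50 were spread (9.35%, 7.16 to 12.1). In 156 of them (29.2%) every read lay at 1 position. Among the 95 untagged C2 clusters of that size, 8 were stacked (8.42%, 4.33 to 15.7) and 74 were spread. The difference in stacked share was 65.4 percentage points (57.1 to 70.8). This interval treats clusters as independent, although 20 untagged C2 clusters lie in 1 stretch of chromosome 17. Whether the authors assigned the class letters by read profile is not known. No C2 cluster of this size had every read at 1 position, where the interval for 0 of 95 reaches 3.89%. Whether a cluster's count includes reads from outside its window is not stated, and C2 clusters often have close neighbours. The untagged library thus held both kinds of read profile, under different class names.

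**Figure D2:**
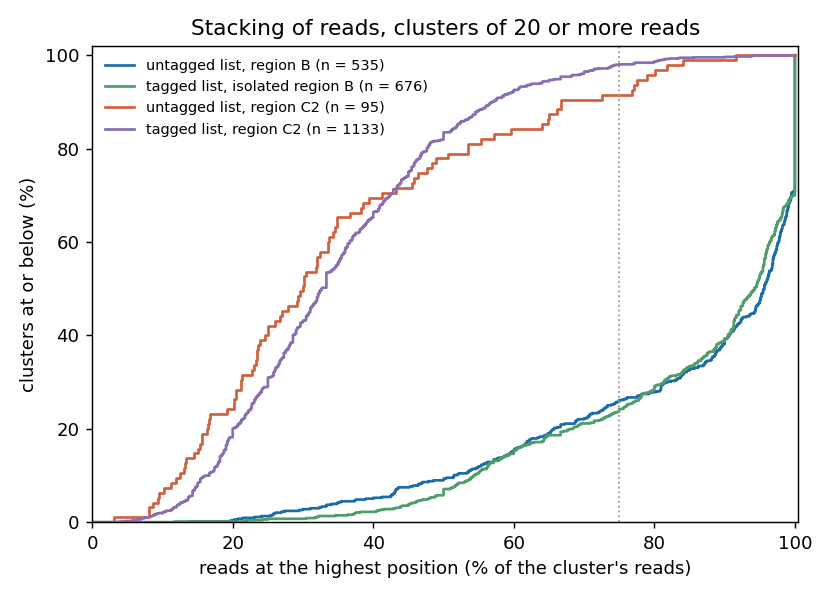
Curves give the cumulative percent of clusters (y axis) against the percent of reads at the highest position (x axis), for clusters of 20 or more reads in 4 classes. The dotted line marks 75%. The curves for region B of the untagged list (n = 535) and isolated region B of the tagged list (n = 676) run close together, far to the right of both C2 curves.

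The largest clusters with every read at 1 position show how extreme the stacking was. At chr13:15312111-15312136 on the plus strand all 263 untagged reads lay at 1 position, and the tagged library had 199 scaled reads there. At chr9:34387010-34387035, also plus strand, all 216 untagged reads did, against 167 scaled tagged reads. Both positions were thus strong in either library, and their depth-adjusted ratios were 1.32 (1.11 to 1.57) and 1.29 (1.07 to 1.56). These clusters were chosen as the first and the fourth by size among those with every read at 1 position, after their values were seen.

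Strong isolated region B clusters of the tagged list had a similar profile. Of the 676 with at least 20 reads, 512 were stacked (75.7%, 72.4 to 78.8), so the untagged share was lower by 1.91 percentage points, with an interval of the difference from -6.87 to 2.98. The median untagged cluster had 95.7% of its reads at 1 position (94.4 to 96.7), and the median tagged cluster 94.3% (92.3 to 95.5). At 20 or more reads a difference in stacking between these lists was thus not detectable, within the bounds of that interval.

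Weak clusters differed. At 5 to 9 reads, 184 of 247 untagged region B clusters were stacked (74.5%, 68.7 to 79.5), against 659 of 1612 isolated tagged ones (40.9%, 38.5 to 43.3), a difference of 33.6 percentage points (27.3 to 39.2). At 10 to 19 reads the shares were 73.4% and 67.4%, with an interval of the difference from -1.04 to 12.5. The stacked share of untagged region B clusters was between 73.4% and 78.8% from 5 to 99 reads and 66.7% (58.8 to 73.7) at 100 or more. In the isolated tagged clusters it went from 40.9% at 5 to 9 reads to 78.1% at 20 to 49.

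**Figure D3:**
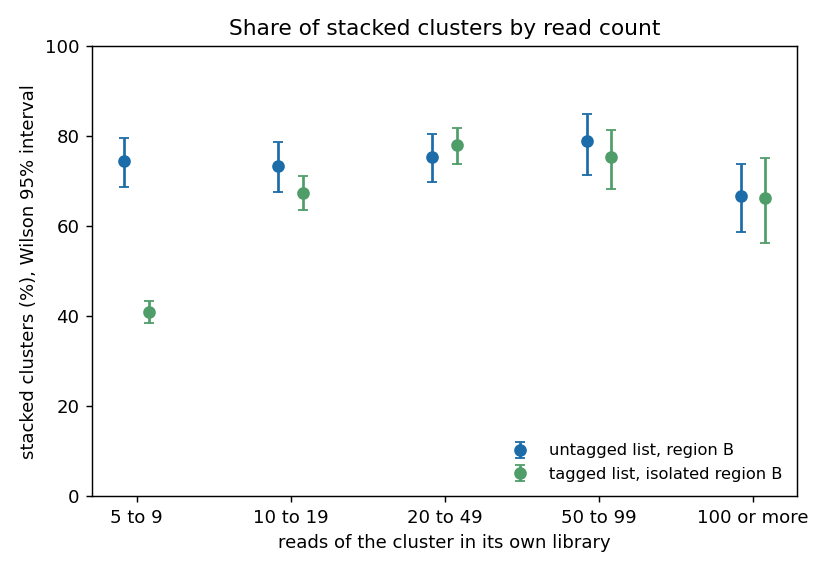
Points give the percent of stacked clusters (y axis) by the cluster's reads in its own library (x axis), with Wilson 95% intervals. The lists part only in the class of 5 to 9 reads, at 74.5% in untagged region B and 40.9% in isolated tagged region B.

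At equal read counts the untagged share was the higher one from 5 to 8 reads and not at 9. At exactly 5 reads, where both lists admit only clusters with 0 reads in the other library, 45 of 60 untagged clusters were stacked (75%), against 329 of 881 isolated tagged ones (37.3%). At 6 reads the shares were 80.5% and 38.6%. Over 5 and 6 reads together they differed by 39.5 percentage points (30.0 to 47.1). At 9 reads, the shares were 65.7% and 70.1%.

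Among the weak tagged clusters, the stacked share was higher where the untagged library also had reads, but read counts differed between these sets. Of the isolated tagged region B clusters of 5 to 19 reads, 384 of 541 with untagged reads were stacked (71%, 67 to 74.6), against 660 of 1642 without (40.2%, 37.8 to 42.6). Of the untagged clusters of the same size, 253 of 348 with tagged reads were stacked (72.7%, 67.8 to 77.1), as were 105 of 136 without (77.2%, 69.5 to 83.5). Of these 4 sets, 3 had shares above 70%, and the tagged clusters with no untagged reads stood lower. Read count is not matched here, since clusters without reads in the other library had fewer reads of their own. Of the 1642 tagged clusters without untagged reads, 1542 had 5 to 9 reads, against 70 of the 541 with them. At 10 to 19 reads the tagged shares were 70.9% (66.7 to 74.8) with untagged reads and 51% (41.3 to 60.6) without. At 5 to 9 reads they were 71.4% and 39.5%, but read count is not matched within this class either. Of the 1542 without untagged reads, 1228 had 5 or 6 reads, and 37.7% of those were stacked. The 70 with untagged reads all had 7 to 9 reads. At 9 reads, 82 of all 117 isolated tagged clusters were stacked (70.1%). Whether the tagged shares with and without untagged reads differ at equal read counts was not tested. The pooled shares thus largely compare clusters of different read counts. Whether reads at 1 position are PCR copies was not tested, because the treatment of duplicates is not given in the sources used here.

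Untagged region B clusters were isolated. Of the 1019, 1012 (99.3%, 98.6 to 99.7) had no other untagged-list cluster within 1000 nt on the same strand, and 925 (90.8%, 88.8 to 92.4) had no cluster of either list within 10000 nt on either strand. The median distance to the nearest other untagged-list cluster was 1367424 nt on the same strand and 1335792 nt on the opposite strand. The whole untagged list holds only 1134 clusters, and the spacing to expect from so sparse a list was not computed. Among untagged C2 clusters, 53 of 109 (48.6%, 39.4 to 57.9) had no untagged-list neighbour within 1000 nt. Many of those share 1 locus, so the 109 are fewer independent places than their number.

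Adjacent region B clusters lay within 10000 nt of each other in 15 pairs, 7 with both on the same strand and 8 on opposite strands. The closest pair on opposite strands was on chromosome 16, where chr16:8738486-8738511 on the plus strand had 63 reads and chr16:8738980-8739005 on the minus strand had 6, with 468 nt between them. On chromosome 1, chr1:93347054-93347079 (plus, 11 reads) and chr1:93347575-93347600 (minus, 7 reads) were 495 nt apart. The closest pair on 1 strand, chr11:74133286-74133311 and chr11:74133373-74133398, had 40 and 104 reads with 61 nt between them. Only 30% and 26.9% of their reads lay at the highest position, so this pair had spread reads. These pairs were chosen as the closest after their values were seen.

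Untagged region B clusters lay about as far from the tagged list on either strand. The median distance from an untagged region B cluster to the nearest tagged-list cluster was 351907 nt (313914 to 382631) on the same strand and 342651 nt (302081 to 368922) on the opposite strand. Tagged-list clusters within 1000 nt on the same strand were found for 8 clusters (0.785%, 0.398 to 1.54), and on the opposite strand for 5 (0.491%, 0.21 to 1.14). Untagged C2 clusters differed, with 37 of 109 (33.9%, 25.7 to 43.2) within 1000 nt on the same strand and 1 on the opposite strand. The same-strand share of region B was lower by 33.2 percentage points (-42.5 to -24.9). That interval treats the 109 C2 clusters as independent, although 20 of them lie in 1 stretch of chromosome 17. Sites on 1 transcript lie on the same strand, so the opposite strand served as the comparison within each class.

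For 30 untagged region B clusters the nearest same-strand tagged-list cluster lay farther than 1000 nt and up to 10000 nt away. The nearest opposite-strand one lay in this window for 21. The same-strand part was 58.8% of the 51 (45.2 to 71.2), an interval that includes an even split. Up to 100000 nt the counts were 196 and 212, or 48% (43.2 to 52.9). Isolated tagged region B clusters, over the window up to 10000 nt, had their nearest same-strand neighbour in 208 cases and their nearest opposite-strand neighbour in 79. The same-strand part was 72.5% (67 to 77.3). Nearest same-strand neighbours at this distance were thus found for 2.94% of untagged and 7.28% of isolated tagged region B clusters, a difference of -4.33 points (-5.67 to -2.81). Nearest opposite-strand neighbours were found there for 2.06% and 2.76%, with an interval of the difference from -1.68 to 0.496. The measures are not alike, since isolated tagged clusters were set against their own list and untagged clusters against the other library's list. Tagged clusters can also be each other's neighbour, and the intervals take no account of this.

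**Figure D4:**
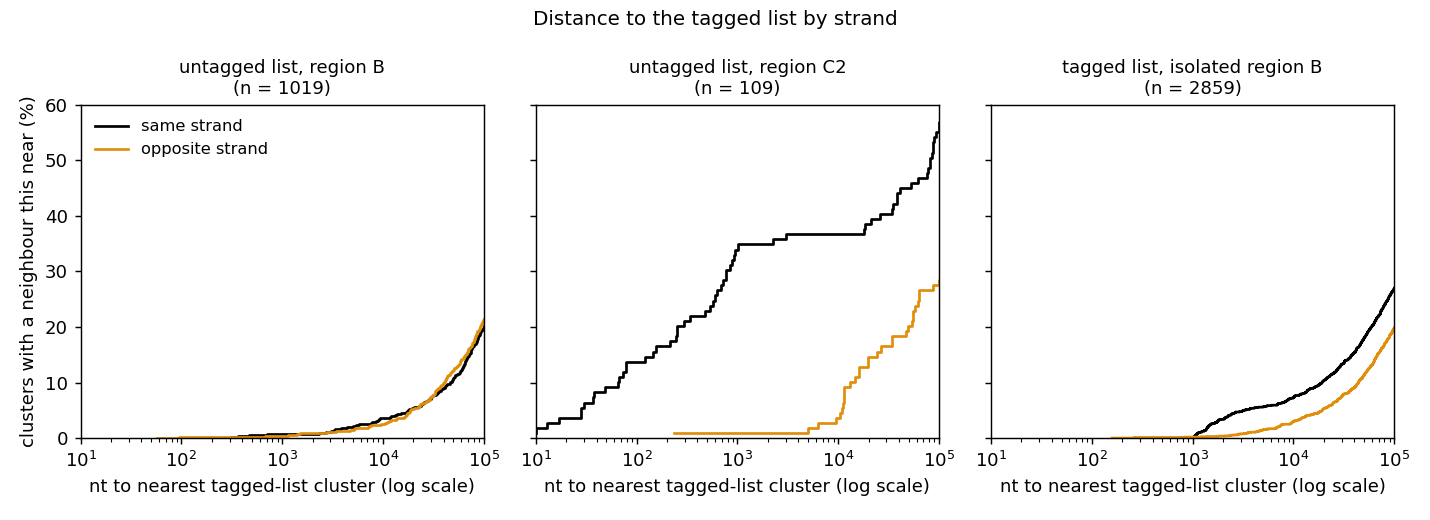
Curves give the percent of clusters (y axis) with a tagged-list cluster within the distance on the x axis (log scale), for the same strand (black) and the opposite strand (orange), in 3 classes. The curves overlie in untagged region B (20% and 21.3% at 100000 nt) and part in untagged C2 and in isolated tagged region B, where the first 1000 nt on the same strand are empty by definition.

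Neighbours in the tagged list whose names include C2 were counted in the same way, by the nearest one on each strand. Isolated tagged region B clusters had one in this window on the same strand in 123 cases and on the opposite strand in 26 (82.6% same, 75.7 to 87.8). For untagged region B clusters these counts were 12 and 6 (66.7%, 43.7 to 83.7). The number of untagged neighbours is too small at this distance to tell its share from either an even split or the tagged share.

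The 8 untagged region B clusters nearest to the tagged list on their own strand were of several kinds. The nearest, at chr10:81028415-81028440 on the plus strand, lay 220 nt from a tagged-list cluster and had 221 untagged against 149 scaled tagged reads, with every read at 1 position. At chr16:57152819-57152844, 310 nt from a tagged-list cluster, 20 untagged reads at 1 position stood against 0 tagged reads. The exact interval of the ratio began at 7.41 and has no upper end. The clusters chr10:83990453-83990478 and chr10:40553279-40553304, both on the minus strand, had 66 and 41 untagged reads, again all at 1 position, against 39 and 21 scaled tagged reads. At chr10:110602048-110602073 on the minus strand, 30 of 31 reads lay at 1 position. The remaining 3 had less stacked reads, namely chr1:162965982-162966007 with 10 of 15 reads at its highest position and 2 clusters of chromosome 17. Proximity to the tagged list therefore went with no single read profile. Over the 38 clusters with a same-strand tagged-list cluster within 10000 nt, 13 of the 20 with at least 20 reads were stacked (65%, 43.3 to 81.9), against 74.2% (70.2 to 77.8) of the rest.

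The clusters with the most reads were an exception to the stacked profile. Of the 8 largest, with 628 to 5800 untagged reads, 7 were spread and 1 was stacked. The largest was chr17:39983693-39983718 on the plus strand, with 5800 untagged against 4638 scaled tagged reads and 20.7% of its reads at the highest position. Its neighbour, the fourth by reads, chr17:39983820-39983845 on the same strand, had 2534 against 2137 reads and 19.7% at the highest position. Before scaling, the tagged library had 6957 to 6965 and 3206 to 3209 reads at these positions, over the range of the depth factor, so the listed excess there is one of share of the library. Both belong to a stretch of chromosome 17 with 22 untagged-list clusters, of which the other 20 were named C2.

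Beyond chromosome 17, none of the large spread clusters had another untagged-list cluster within 1000 nt on its strand. At chr1:124253788-124253813 on the minus strand, 2757 untagged reads stood against 2267 scaled tagged reads, a depth-adjusted ratio of 1.22 (1.16 to 1.28), with 13.9% of reads at the highest position. This was the lowest such share among the 535 clusters of 20 or more reads, and the nearest untagged-list cluster on its strand was 12748027 nt away. At chr18:68851753-68851778 on the plus strand, 2894 reads stood against 1834, a ratio of 1.58 (1.5 to 1.66), and 33.3% lay at the highest position. A pair on the minus strand of chromosome 9, chr9:65044388-65044413 and chr9:65049542-65049567, lay 5128 nt apart with nearly equal values. They had 764 and 869 untagged reads, 631 and 696 scaled tagged reads, and 29.5% and 27.4% of reads at the highest position. At chr14:109830162-109830187 on the plus strand, 628 reads stood against 383, with 23.1% at the highest position. The stacked one among the 8 was chr6:143917007-143917032 on the plus strand, with 656 of its 687 reads at 1 position against 621 scaled tagged reads.

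The lowest listed p-values went partly to other positions. Of the 8 clusters with the lowest p, 3 were also among the 8 with the most reads, with the lowest of all, 2.92e-54, at the chromosome 18 position. The remaining 5 had larger ratios. All 8 were picked on p from the same reads, so their ratios and intervals describe the counts only. At chr3:144057096-144057121 on the minus strand, 158 untagged reads stood against 31 scaled tagged reads, a ratio of 5.1 (3.62 to 7.32), and 96.8% of reads lay at 1 position. At chr1:78661451-78661476 on the plus strand it was 133 against 30, a ratio of 4.43 (3.14 to 6.37), with 98.5% at 1 position. The cluster chr5:84749301-84749326 on the plus strand had 225 against 92 reads (ratio 2.45, 1.97 to 3.05) with 96% at 1 position. The others, chr13:58066277-58066302 and chr5:125884626-125884651 on the minus strands, had ratios of 2.12 (1.8 to 2.5) and 2.27 (1.89 to 2.74) and spread reads, 46.9% and 35.1% at the highest position.

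The highest ratios among clusters of at least 20 reads belonged to small, stacked clusters. All 8 of these had 20 to 48 untagged reads, log2 ratios of 3.25 to 4.46, and between 81% and 100% of reads at 1 position. The highest was chr6:145408859-145408884 on the plus strand, with 21 untagged reads against 0 tagged reads. The exact interval of its ratio began at 7.82. All 8 were picked on this ratio, so their ratios and intervals describe the counts and are no estimate of the excess. The next was the chromosome 16 position described above, with 20 reads against 0 and a log2 ratio of 4.39. At chr6:44413696-44413721 on the minus strand, all 48 untagged reads lay at 1 position against 3 scaled tagged reads, a ratio of 16 (5.76 to 68.8). At chr7:16715911-16715936 on the plus strand all 44 did, against 2 scaled tagged reads, a ratio of 22 (7.06 to 111). At chr2:93796254-93796279 on the minus strand all 37 did, against 3, a ratio of 12.3 (4.35 to 53.6). The remaining 3 positions, chr6:30904471-30904496 and chr7:100199290-100199315 on the plus strand and chr13:34254857-34254882 on the minus strand, had 21, 21 and 20 untagged reads against 1 scaled tagged read each. Of all untagged region B clusters of 20 to 49 reads, 75.4% were stacked, and over the 535 of at least 20 reads the Spearman correlation of log2 ratio and share at 1 position was 0.15, so nothing is read from the stacking of these 8.

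Untagged region B clusters were found on chromosomes 1 to 19 and X, from 76 on chromosome 2 to 25 on chromosome X. None lay on chrM, which held 55 tagged-list clusters, or on chromosome Y, which held 7. Isolated tagged region B clusters also numbered 0 on each of these, so this absence was shared by both region B classes. By strand, 535 of the 1019 (52.5%, 49.4 to 55.6) lay on the plus strand. Set against isolated tagged region B clusters, the untagged share of both was 26.3% over all chromosomes and ran from 18.5% (12.9 to 25.9) on chromosome X to 32.5% (25.7 to 40.2) on chromosome 15. Chromosome X held 2.45% of untagged and 3.85% of isolated tagged region B clusters, a difference of -1.39 points (-2.49 to -0.081) that was 1 of 20 such comparisons and has no adjustment for their number. On chromosome 8 the untagged share was 19.5% (14.6 to 25.5). On each of the other 18 chromosomes the interval included 26.3%. Apart from chromosomes 8 and X, the proportions of both classes were thus not distinguishable from the overall one.

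**Figure D5:**
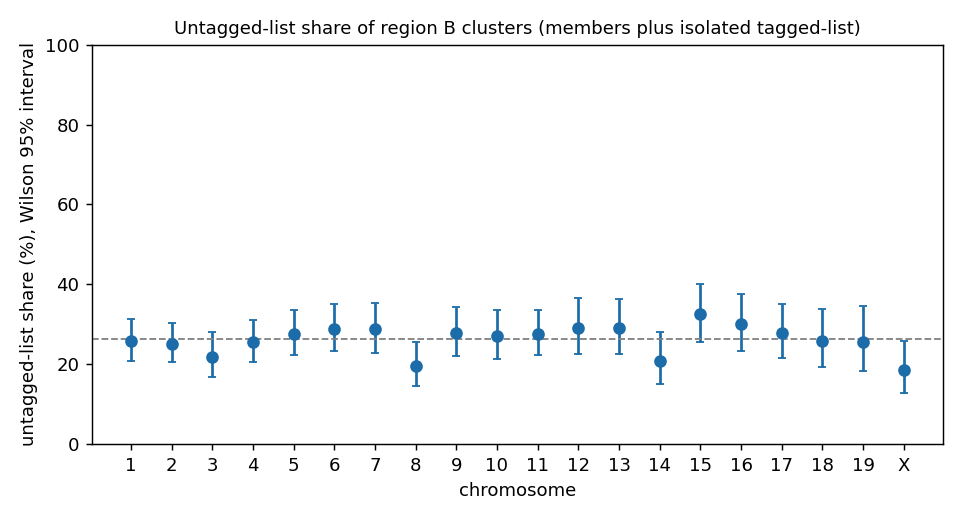
Points give, per chromosome (x axis), the untagged list's percent of all region B clusters counted (untagged region B plus isolated tagged region B, y axis), with Wilson 95% intervals. The dashed line is the value over all chromosomes, 26.3%, and only the intervals of chromosomes 8 and X lie below it.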

How the data were processed

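The authors deposited 1 list of enriched read clusters per library. The build is mm9, per the submitters' processing notes. Neither the aligner nor the cluster caller is given in the sources used here, nor is how duplicates were handled. Per the deposited values, column 5 is a read count at the highest position. Column 7 of the deposited lists joins the untagged or tagged read count, a log2 ratio with 1 added to both reads, and a one-sided binomial p-value. Column 8 joins offsets and the same count. These meanings were inferred, since the deposited lists have no header.

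Reads of the other library are the whole number that gives back the listed log2 ratio (tolerance 0.006) and p (0.0001, or 0.001 in relative terms below that). All 1019 clusters gave one and 7 gave several, of which the closest to p was taken. On simulated untagged-list counts 98.3% of 1000 were recovered. Tagged-list values were multiples of a factor between 1.5 and 1.502, read as relative depth, and the midpoint was used. Tagged reads at untagged clusters were taken as divided by it. Odd scaled values, which then arise from more whole numbers, were 74.7% of 730 (71.4 to 77.7), against 67.0% for whole numbers used evenly. Total depth is unknown.

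Shares have Wilson intervals, differences Newcombe intervals, medians order-statistic intervals and ratios exact binomial intervals (Python 3.11.15, scipy 1.17.1). Distances count the bases between clusters. Named clusters are the 8 with the most reads, the 8 with the lowest p, the 8 with the highest log2 ratio among those of at least 20 reads and the 8 nearest to the tagged list on their strand. The classes and rules were chosen with earlier results of these data known. No genome or gene annotation of mm9 was used here, so clusters carry positions and no gene names or sequences.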

Additional observations from a re-analysis of the deposited data

How the results depend on the processing

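No paired analysis was possible because there is a single library of each kind. Of 39 alternatives to 9 results, 29 stayed within the 95% interval of the reported value and 10 moved beyond it. With clusters of p under 0.01 only (456), the median untagged reads became 41, scaled tagged reads 15, the log2 ratio 1.38 and the share with 0 tagged reads 8.11%. With at least 20 reads, that share became 0.374% and the median log2 ratio 0.91. Both settings keep fewer clusters by construction. Requiring over 90% of reads at 1 position gave a stacked share of 60.7%. A distance of 10000 nt in place of 1000 nt gave 98.2% isolated and 3.73% near a tagged-list cluster, and 100 nt gave 0% near one. Leaving out the 2 chromosome 17 clusters moved no value beyond its interval. The alternatives on that locus, on the stacking difference at 5 to 9 reads (30.3 to 31.8 points) and on the strand of neighbours (48 to 54.2%) were chosen after seeing the data. Alternatives on annotated genes and on second copies in the genome were not run, since they need an mm9 genome.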
